A study of Mus musculus with 19 samples.

Results

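Nppa encodes the precursor of atrial natriuretic peptide. It was read here as transcript ENSMUST00000103230.4, 1 of 96626 transcripts in each table, and was taken by that ID. The rule uses no measured level, but Nppa was picked for study with earlier results of these data known. The tables give IDs without gene names. The pairing of this ID with Nppa came with the choice of the transcript, and the reference tables used here held none of the transcript IDs (0 matched), so it could not be checked. For the same reason the defining markers of ventricular muscle, and those of atrial muscle, were not read.

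Left ventricle RNA from mouse was sequenced in 12 libraries of a series of 19 samples, with 3 libraries in each of 4 groups. Control hearts came from littermates lacking the transgene, either unoperated (Control baseline) or banded (Control TAB). JP2NT-OE hearts carried a transgene for an HA-tagged N-terminal truncate of junctophilin-2, driven in heart muscle cells by the α-MHC promoter, and were likewise unoperated (JP2NT-OE baseline) or banded (JP2NT-OE TAB). Transverse aortic banding (TAB) constricts the aorta so that the ventricle pumps against a higher pressure. It was done in males aged 9 weeks, and hearts were taken 3 weeks afterwards. Hearts without surgery were taken at the same age of 12 weeks, and no sham operation was listed, so load and surgery cannot be told apart. The strain is not given in the sources used here. Replicates are numbered, but the labels do not say that each is a separate animal, and the p-values then cover only the spread seen between libraries, which may be technical. The 7 chromatin samples were not analysed here.

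Atrial natriuretic peptide is a hormone that heart muscle cells release when they are stretched. It acts through a receptor guanylyl cyclase, Npr1, to raise cyclic GMP, which relaxes vessels and makes the kidney excrete sodium and water. The adult atrium makes most of it. The ventricle makes it before birth, nearly stops afterwards, and makes it again under load, so Nppa is widely used as a marker of ventricular stress. Because the atrium is so rich in this transcript, atrial tissue in a ventricular sample would also raise it, and this was not tested.

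The gene lies on chromosome 4 at chr4:148000722-148002074 (GRCm38.p6, plus strand). This assembly is that of mm10, the build named in the submitters' processing notes. In RefSeq, Nppb, the gene of the related B-type peptide, lies 13517 bases before Nppa. The chloride transporter gene Clcn6 lies 2185 bases after Nppa. Each distance is the gap between the nearest ends of both genes, and the strands of the neighbours were not read. The 250 bases before the RefSeq start are shown because the series also profiled the binding of JP2NT, of the muscle factor MEF2C and of TBP, the protein that binds the TATA box. Capitals mark the motif matches found on either strand, 5′ to 3′, at chr4:148000472-148000721 (sequence from RefSeq, GRCm38.p6).
Nppa: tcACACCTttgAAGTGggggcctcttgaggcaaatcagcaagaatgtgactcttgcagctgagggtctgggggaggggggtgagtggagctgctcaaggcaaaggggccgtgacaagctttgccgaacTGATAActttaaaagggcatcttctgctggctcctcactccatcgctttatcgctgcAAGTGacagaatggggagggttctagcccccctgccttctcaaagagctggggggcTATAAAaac

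The TATA box motif, TATAAA, stood once in this window, from 9 to 4 bases before the RefSeq start. That start was taken as listed and was not checked in these data, and all distances here are measured from it. Of 32851 windows of the same length in the table, 12.4% held TATAAA on either strand. A GATA motif (AGATAA or TGATAA), the letters read by Gata4, stood once, from 122 to 117 bases before the start, and 16.6% of windows held one. The NKX2-5 motif, AAGTG, stood 2 times, and 40.7% of windows held it at least once. A T-box motif (AGGTGA or AGGTGT) stood once on the minus strand, and 24.3% of windows held one. These matches did not overlap each other. No match was found for MEF2 (2.92% of windows) or for CArG, the motif of serum response factor (1.47%). The TEAD motif CATTCC (12.6%) and the E box form CACGTG (6.02%) were also absent. Other forms of the E box were not searched, so the window may hold them. Only full matches to each motif pattern were counted, so a sequence that differs by 1 letter was not found. A match describes letters and not a bound site.

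**Figure D1:**
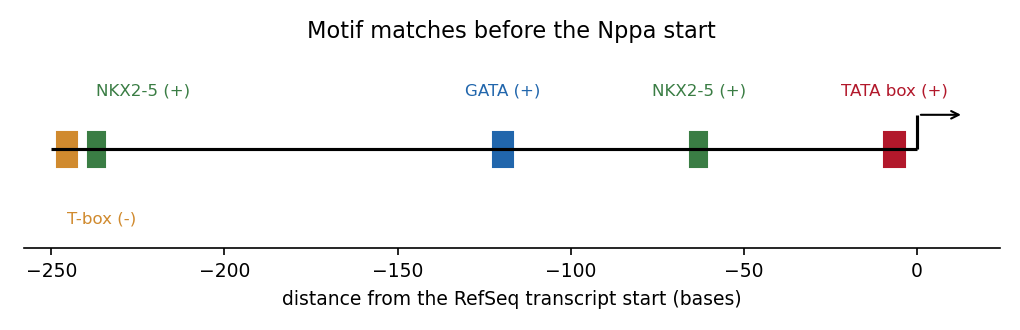
Motif matches in the 250 bases before the RefSeq start of Nppa; the x axis is the distance from the start in bases, boxes are matches, and the sign gives the strand. The TATA box lies nearest the start, and the GATA motif lies between the NKX2-5 matches.

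Nppa was measured well above 0 in every unoperated control sample. Its deposited TPM, an abundance corrected for transcript length, was 157, 302 and 253 in replicates 1, 2 and 3 of Control baseline. It ranked between 189 and 353 among all transcripts there. After banding, TPM in Control TAB was 7776, 9087 and 6708, and Nppa ranked between 17 and 19. In JP2NT-OE hearts TPM was 202, 371 and 538 at baseline, with ranks from 105 to 288, and 3155, 3799 and 1491 after banding, with ranks from 22 to 43. The lowest rank in a banded library, 43, was thus well above the best in an unoperated one, 105.

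The estimated counts behind these values ran from 4393 to 240974. The files print 6 significant digits, so a count of 100000 or more shows no decimals, which holds for 4 libraries. In the other 8, from 4393 to 95015, the count was whole as printed, to 0.1 or finer. Of 17996 transcripts with a mean of at least 100 estimated counts, 9.31% were whole in every library where decimals could show. Library totals ran from 37662212 to 53097801. Counting error alone would give a CV between 0.204% and 1.51%, while the CV of TPM between libraries of a group was 15.2% to 45.4%. The transcript is 865 bases long, and its effective length (corrected for fragment size) was 699.0 to 705.5 bases.

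For comparisons between libraries, counts were scaled to CPM, counts relative to the library total, with TMM factors, a scaling that takes the bulk of transcripts as unchanged. Control baseline stood at 107, 217 and 164 CPM in replicates 1 to 3, with a mean of 163 ± 55 (SD, n = 3). JP2NT-OE baseline stood at 144, 255 and 344 CPM, with a mean of 247 ± 100.3. Unoperated hearts of both genotypes overlapped, since the lowest JP2NT-OE library lay below 2 of the control libraries. Control TAB stood at 4165, 5049 and 3683 CPM, with a mean of 4299 ± 693. JP2NT-OE TAB stood at 1865, 2229 and 951 CPM, with a mean of 1682 ± 659. The banded libraries of both genotypes lay above every unoperated library, and those of JP2NT-OE lay below those of control. Replicate 3 was the lowest of the banded JP2NT-OE libraries.

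**Figure D2:**
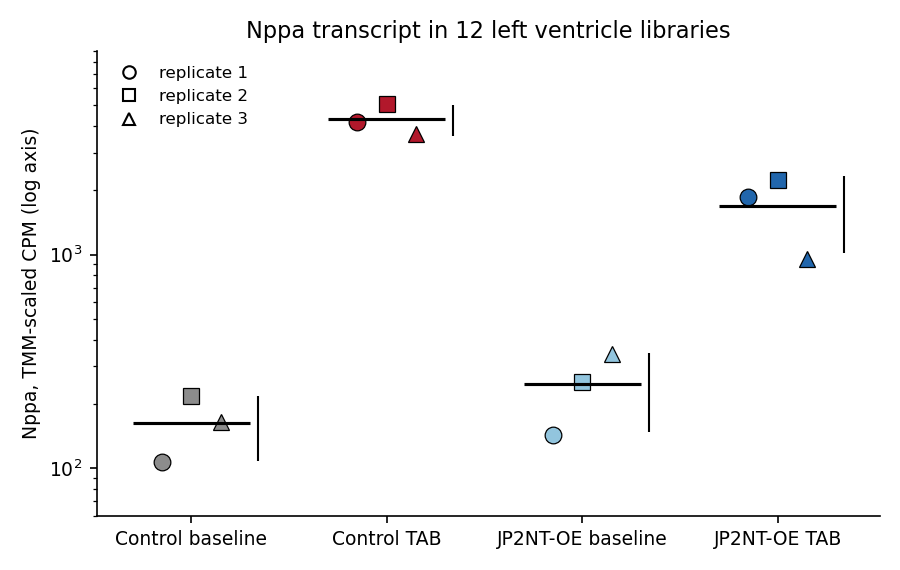
TMM-scaled CPM of Nppa (log axis) in the 12 libraries by group; symbols are replicates, horizontal lines group means and vertical lines ± 1 SD. Banded control libraries lie between 3683 and 5049 CPM, banded JP2NT-OE libraries between 951 and 2229 CPM, and unoperated libraries between 107 and 344 CPM.

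The order of the group means was Control baseline, JP2NT-OE baseline, JP2NT-OE TAB and Control TAB, from lowest to highest. The first pair of neighbours did not differ beyond its spread. The second pair differed in the test across all transcripts, and the third pair did not overlap but did not pass that test, as set out next. In bulk tissue, fewer cells that make a transcript and less of it per cell cannot be told apart.

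The comparison of banded with unoperated control hearts asked how the ventricle without the transgene responded. Nppa rose 26.4-fold (95% interval 13.5 to 51.8), in 3 of 3 banded libraries. This is 4.72 on the log2 scale (SE 0.44), with an edgeR adjusted p of 0.00034. The test called 8.60% of 43256 transcripts, and in 28.3% the libraries of both groups did not overlap, as they did not for Nppa. Of the 18617 transcripts whose mean log2 CPM was 1 or more, 7 had a larger log2 rise. In CPM, Nppa gained 4136, the 2nd largest gain of any tested transcript, which made up 5.06% of the sum of all gains in group means. Its share of all estimated counts went from 0.0154% ± 0.00492 to 0.462% ± 0.0692 (SD, n = 3). The call held in each of the 23 alternatives tried, with log2 fold changes from 4.49 to 5.09.

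With the transgene present, the same question was asked of banded and unoperated JP2NT-OE hearts. Nppa rose 6.8-fold (95% interval 3.67 to 12.6), again in 3 of 3 banded libraries. This is 2.77 on the log2 scale (SE 0.40), with an edgeR adjusted p of 0.0387. Here 0.238% of transcripts were called, and in 18.6% the groups did not overlap. The gain was 1434 CPM, the 3rd largest of any tested transcript and 3.19% of all gains. Its share of all counts went from 0.0238% ± 0.0104 to 0.173% ± 0.0726 (SD, n = 3). The size was steady, between 2.49 and 3.08 over the alternatives, but the call was near its threshold. It was lost when any 1 of 11 libraries was left out, control libraries included (edgeR adjusted p from 0.0545 to 0.122), and held without JP2NT-OE TAB replicate 3 (edgeR adjusted p = 0.013). It was also lost in a fit of the 6 libraries compared alone (edgeR adjusted p = 0.118) and with the replicate number as a block (edgeR adjusted p = 0.082), so 13 of 23 alternatives ended it.

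Between unoperated hearts of both genotypes, Nppa did not pass the test. Its mean was higher in JP2NT-OE, with a log2 fold change of 0.60 (SE 0.38, 95% interval -0.23 to 1.44, edgeR adjusted p = 1). The interval allows a level from 0.851 to 2.71 times that of control. Few transcripts were called at all (0.00694%), and in 9.95% the groups did not overlap, whereas for Nppa they did. The estimate moved with single libraries, from 0.29 without JP2NT-OE baseline replicate 3 to 0.88 without JP2NT-OE baseline replicate 1. Both genotypes varied widely at baseline: the highest library held 2.03 times the lowest in control and 2.39 times in JP2NT-OE.

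Between banded hearts, the mean of Nppa was 2.56 times lower in JP2NT-OE than in control (95% interval 1.42 to 4.59). All 3 banded JP2NT-OE libraries lay below all 3 banded control libraries, and 16.7% of transcripts had groups that did not overlap here. The log2 fold change of -1.35 (SE 0.38) had an unadjusted p of 0.005 and did not pass with edgeR over all transcripts (adjusted p = 0.182), where 0.451% were called. DESeq2 did call it (adjusted p = 0.0172), and over all alternatives the adjusted p ran from 0.0172 to 0.406. This comparison uses the banded libraries of the banding comparisons, so it is no separate evidence.

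The interaction asked directly whether banding moved Nppa differently in the genotypes. The log2 banding effect was lower by 1.96 in JP2NT-OE than in control (log2 difference -1.96, SE 0.54, 95% interval -3.15 to -0.77), so the fold rise was 3.88 times smaller (95% interval 1.71 to 8.85). Across all transcripts this did not pass with edgeR (adjusted p = 0.283, unadjusted p = 0.0042), and 0.00231% of transcripts were called. With DESeq2 it passed (adjusted p = 0.0328), and over the alternatives the adjusted p ran from 0.0328 to 0.464. An exact two-sided permutation test of this single value, which exchanged genotype within the unoperated and within the banded libraries, gave a log2 difference of -2.00 with p = 0.015 over 400 assignments (smallest possible 0.005). Adjusted over the 5 comparisons made in the same way, it was 0.075. The exchange takes libraries of both genotypes as alike in level and spread within each condition, and not only alike in banding effect. The SD of log2 CPM was 0.229 in Control TAB and 0.649 in JP2NT-OE TAB, and these spreads were not tested against each other. For the other 4 comparisons, 3 libraries against 3 cannot go below an exact permutation p of 0.1. That value was reached for both banding effects and for genotype after TAB (0.125 adjusted), and the exact permutation p was 0.3 for genotype at baseline. Since Nppa was picked with earlier results known, its single-value p does not stand for a blind test.

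**Figure D3:**
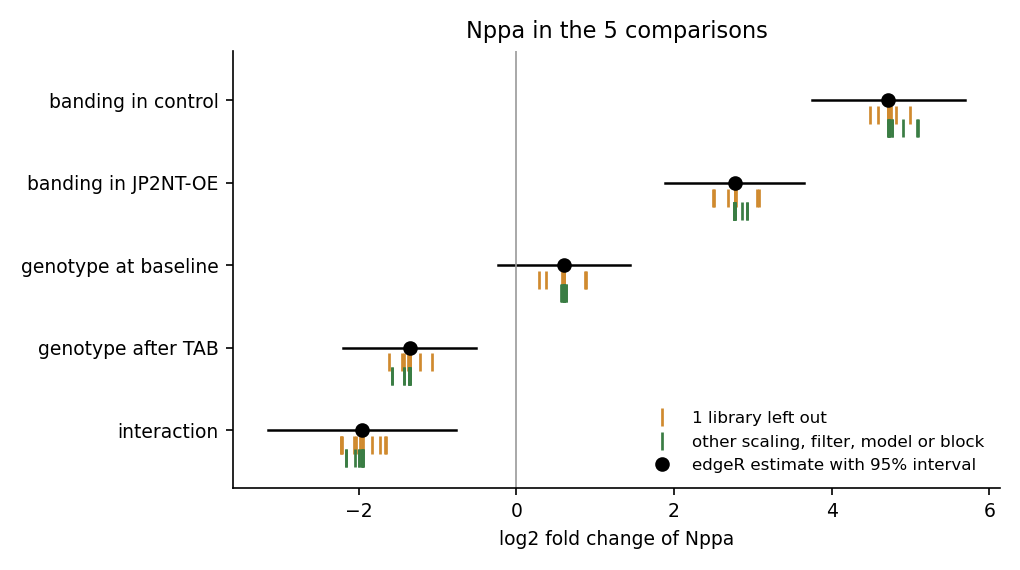
Log2 fold change of Nppa in the 5 comparisons (x axis); black points and lines are the edgeR estimate with its 95% interval, and ticks are the same value with 1 library left out or under another scaling, filter, model or block. The banding ticks lie between 4.49 and 5.09 in control and between 2.49 and 3.08 in JP2NT-OE, and those of the interaction lie between -2.23 and -1.65.

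The banded JP2NT-OE library with the lowest Nppa, replicate 3, was also the one of its group nearest the unoperated libraries by other transcripts. On the first principal component of 18616 other transcripts, which held 30.3% of their variance, unoperated libraries lay between -34.5 and -22.0 and banded control libraries between 38.7 and 42.3. Replicates 1 and 2 of JP2NT-OE TAB lay at 18.2 and 19.5, and replicate 3 at 4.63. All 3 stood between the unoperated and the banded control libraries on this axis, as they did for Nppa. Without replicate 3 the genotype difference after TAB was -1.07 (edgeR adjusted p = 0.406) and the interaction -1.67 (edgeR adjusted p = 0.412) on the log2 scale. Its part in the full results was measured only by leaving it out.

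**Figure D4:**
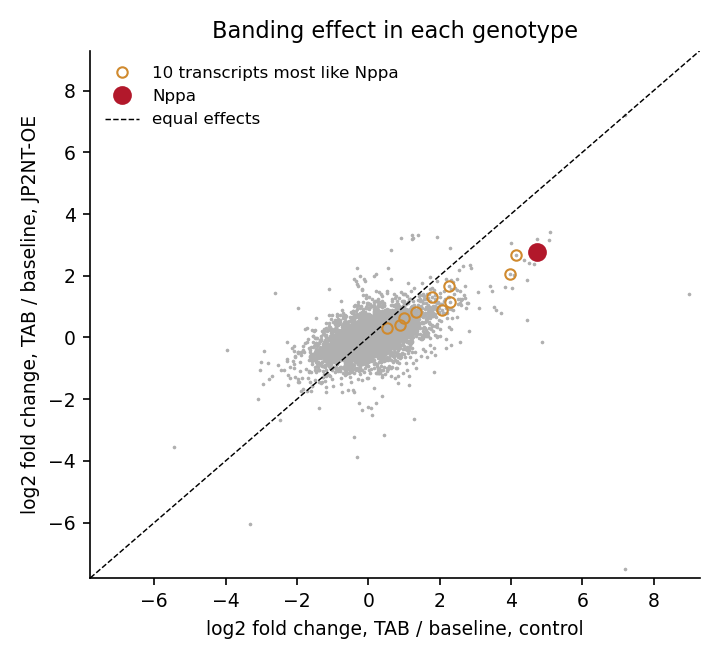
Log2 fold change with banding in control (x axis) and in JP2NT-OE (y axis) for transcripts whose mean log2 CPM was 1 or more; the dashed line marks equal effects. Nppa (filled) lies at 4.72 and 2.77, below the line, and the 10 transcripts most like it (open) lie at 0.53 to 4.15 and 0.32 to 2.66.

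Nppa varied more between libraries of one group than most transcripts of similar mean abundance. Within groups its SD was 0.535 on the log2 CPM scale. The median was 0.102 over 166 transcripts within 1 log2 unit of its mean over the 12 libraries, of which 98.8% had a lower SD. This match does not hold group by group, since the mean log2 CPM of Nppa ran from 7.288 in Control baseline to 12.06 in Control TAB. By group the SD was 0.513 in Control baseline, 0.229 in Control TAB, and 0.639 and 0.649 in the unoperated and banded JP2NT-OE libraries. Of the same 166 transcripts, 99.4%, 89.2%, 100% and 99.4% had a lower SD in these groups, in that order. The banded control libraries were thus the most alike, though the spreads of 3 libraries each were not tested against each other.

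**Figure D5:**
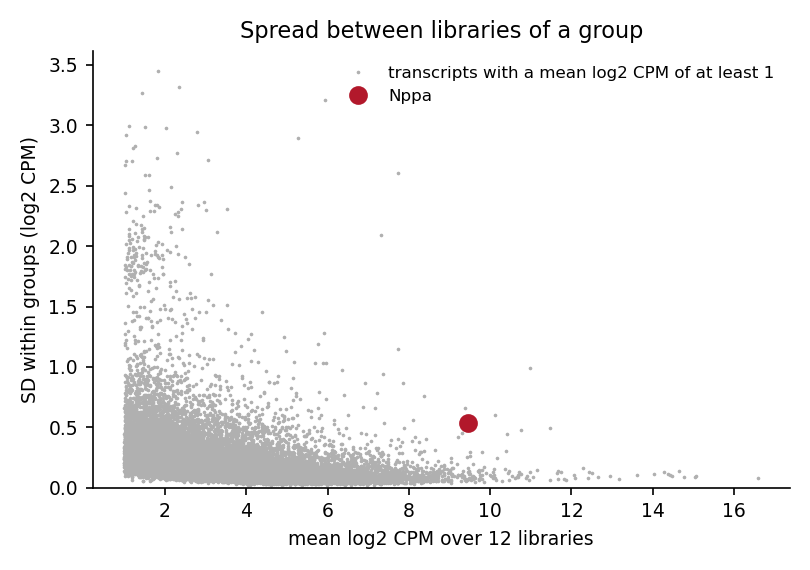
SD of log2 CPM within groups (y axis) against mean log2 CPM over the 12 libraries (x axis), 1 point a transcript. Nppa, at an SD of 0.535, lies above nearly all transcripts of like abundance, whose median is 0.102.

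The transcripts whose pattern was most like that of Nppa were found by Pearson's correlation of log2 CPM over the 12 libraries. These values carry the group differences and are given without a test. Over 18616 transcripts the median correlation was -0.01, and the middle 95% lay between -0.91 and 0.90. The 10 most alike had correlations from 0.976 to 0.992, and their log2 banding effects ran from 0.53 to 4.15 in control and from 0.32 to 2.66 in JP2NT-OE. The files do not pair these IDs with genes, so only 2 in each direction are named. ENSMUST00000048762.7 (correlation 0.992) stood at 9.95 ± 2.30 CPM in Control baseline and 176 ± 42.5 in Control TAB, and at 12.6 ± 4.77 and 79.7 ± 39.7 in the same JP2NT-OE groups (SD, n = 3). ENSMUST00000128258.1 (0.983) stood at 8.02 ± 0.513 and 27.5 ± 2.07 CPM in control, and at 7.97 ± 1.08 and 20 ± 4.01 in JP2NT-OE. Both were higher in every banded group mean, with the control one above that of JP2NT-OE, as for Nppa. Choice by correlation over the same libraries favours that order, so it is no separate evidence.

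The opposite pattern was nearest in ENSMUST00000144863.7 (correlation -0.989), at 4.51 ± 1.32 and 0.938 ± 0.138 CPM in control, and 4.05 ± 0.772 and 1.73 ± 0.570 in JP2NT-OE. It was followed by ENSMUST00000044195.5 (-0.985), at 10.8 ± 1.19 and 6.38 ± 0.167 CPM in control, and 9.65 ± 0.784 and 7.44 ± 0.792 in JP2NT-OE. The likeness went beyond group means: after each group's mean was taken away, the deviations of these 4 transcripts correlated with those of Nppa at 0.90, 0.78, -0.94 and -0.92. Since likeness over the same libraries chose them, those values describe the choice.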

How the data were processed

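Left ventricle RNA was sequenced in 12 libraries. The labels' protocols name a stranded polyadenylated RNA kit. Tools listed in the submitters' processing notes, without roles, are kallisto 0.42.5, cutadapt 1.8.1, FastQC 0.11.3, MACS 1.4.2 and Bowtie2 2.2.5, with the build mm10. The deposited tables hold, per the file headers, for every transcript its estimated count and its TPM in that library. The transcript annotation release is not given in the sources used here.

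Estimated counts were rounded and tested with edgeR 4.0.16 (R 4.3.3; filterByExpr by group, 43256 transcripts kept and 53370 removed; TMM; quasi-likelihood test, 1 mean per group, 8 residual degrees of freedom, Benjamini-Hochberg adjustment over all transcripts, called under 0.05). Tests were per transcript, since IDs could not be paired with genes, and the planned gene and marker lists were therefore not run. Standard errors and intervals come from each log2 fold change and its F statistic. CPM used totals of the tested transcripts, and log2 CPM a prior count of 2. The fits were tested on simulated data. Alternatives used DESeq2 1.42.0 and limma 3.58.1, other scalings and filters, and each library left out. Transcripts were named by likeness to Nppa (10 highest and 3 lowest correlations, at most 2 of each printed). Promoter letters came from RefSeq (GRCm38.p6). Nppa, the lists and the tests were chosen with earlier results of these data known.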

Additional observations from a re-analysis of the deposited data

Results flagged for a closer look

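The log2 banding effect on Nppa in JP2NT-OE minus that in control was -2.00, which had an unadjusted exact two-sided permutation p of 0.015 when genotype was exchanged within the unoperated and within the banded libraries. It did not pass after adjustment over the 5 comparisons (0.075), and Nppa was picked with earlier results of these data known. The exchange takes libraries of both genotypes as alike in level and spread within each condition. With each library left out in turn it ran from -2.35 to -1.64 (exact permutation p from 0.01 to 0.03), and under 5 other scalings from -2.16 to -2.00 (exact permutation p from 0.015 to 0.02). The edgeR test of the same difference over all transcripts did not pass (adjusted p = 0.283), nor did it with any 1 library left out (edgeR adjusted p from 0.263 to 0.464).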

How the results depend on the processing

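In all 23 alternatives for each comparison (22 for the interaction) Nppa kept its direction. Banding in control kept its call throughout, and genotype at baseline was called in none. Banding in JP2NT-OE stayed at 2.77 but lost its call with only the libraries compared (edgeR adjusted p = 0.118) and with a replicate block (edgeR adjusted p = 0.082). Without 1 library it ran from 2.49 to 3.08, with 1 call in 12. DESeq2 alone called genotype after TAB (-1.36) and the interaction (-1.96). The replicate block changed no other call. Same-numbered libraries did not deviate together (18 pairs, correlations from -0.09 to 0.09), and neither did differently numbered ones (36 pairs, -0.13 to 0.10). The labels only number the replicates. These correlations cannot decide whether equal numbers share an origin, since a small shared part could go unseen. Levels in deposited TPM were 237.5 (Control baseline), 7857 (Control TAB), 370.4 (JP2NT-OE baseline) and 2815 (JP2NT-OE TAB), which is another unit than CPM. Of the 10 transcripts most alike, 2 were shared when deviations from group means were correlated and 3 on log2(TPM + 1). The numbers of calls behind the background shares were less steady. For banding in control 3722 were called, 5679 with DESeq2 and 2231 to 3663 without 1 library. For banding in JP2NT-OE these were 103, 1672 and 3 to 407 (195 with library totals alone). For genotype at baseline they were 3, 127 and 0 to 8, for genotype after TAB 195, 1459 and 16 to 112, and for the interaction 1, 677 and 0 to 8. Causes were not tested. Nppa had at least 4393 estimated counts in every library.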

Other observations

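Nppa can be set beside the transcripts that responded most in control. Of those whose mean log2 CPM was 1 or more, 378, Nppa among them, were called in banded control hearts with a log2 fold change of at least 1. In JP2NT-OE, 373 of the 378 had a smaller log2 fold change than in control. These 378 were chosen on their response in control, which by itself favours a smaller value in JP2NT-OE. This count and the percents that follow are therefore descriptions with no test. The log2 fold change of Nppa in JP2NT-OE was 58.5% of that in control, the median over the 378 was 44.8%, and 98 of them had a higher percent than Nppa. On the log2 scale itself, 14 of the 378 had a difference between genotypes further below 0 than Nppa.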
